A study of Oncorhynchus mykiss with 8 samples.

Results

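The proteasome and ubiquitin genes of the liver arrays were 28 probes of 43603. A probe belonged to the set when the gene name given to it in the study's supplementary lists, or its platform symbol, contained proteasome or ubiquitin. Names with ubiquinone, and names that also contained ribosomal, were left out. The names are matches to genes of other species, and no probe entered through its platform symbol. Of the 28 probes, 21 are named only in the lists of genes that differed in white muscle of the same fish, and 7 in the lists of genes that differed in liver on these same arrays (5 for Sept. and 2 for Dec.). The 21 were named through their muscle values, but any probe that the study listed for liver was counted with the 7. Liver values thus bore on the 21 as well, by taking out probes called on these arrays. The values of the 7 in the lot they were listed for put them on the liver lists, so those are given as a description with no test. By role, 6 probes belong to the 20S core, 4 to the 19S regulatory particle, 2 to activation or assembly, 3 to ubiquitin and its relatives, 1 to the activating enzymes (E1), 7 to the conjugating enzymes (E2) and 4 to the ligases (E3), and 1 is the ubiquitin fusion degradation protein.

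The series compares liver mRNA between small and large rainbow trout in lots named Sept. and Dec. after the month of spawning. All fish were immature juveniles of the Lyndon strain, about 15 months old. Within a lot all had 1 male as sire, so fish of the same female were full sibs and those of other females half-sibs. The station was Alma Aquaculture Research Station, and feeding is given as ad libitum in the labels but as a ration adjusted to weight and water temperature in the methods. The methods also give a fast of 2 days ahead of weighing. The largest and second largest fish of each family went into the large pools and the smallest and second smallest into the small pools, so that each pool held liver mRNA of 5 fish, each from another female. Each lot gave 2 pairs of a small and a large pool, and each pair was hybridized on 2 two-color arrays that swapped the dyes Alexa Fluor 555 and 647 (a dye flip), so that 8 arrays stand for 4 pool pairs. The replicate is the pool pair, and with 2 per lot the p-values measure the spread between these pools only. Both pool pairs of a lot, and both pools of a pair, come from the same 5 females and 1 male. Lots differ in sire, dams, season and sampling time at once, and the Dec. fish were heavier and longer. These differences cannot be told apart.

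The proteasome is the barrel-shaped protease that breaks down most short-lived and damaged proteins of the cell. Its 20S core is a stack of rings of alpha and beta subunits with the active sites inside, and the 19S regulatory particle caps the core, binds proteins tagged with ubiquitin, unfolds them and feeds them in. Ubiquitin is attached in a cascade, in which an E1 activates it, an E2 carries it and an E3 picks the protein to be tagged. Liver is an organ of high protein turnover, and breakdown through this pathway and through lysosomes returns amino acids to its metabolism.

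Every value below is the log2 of the small fish signal over the large fish signal, so that a value above 0 means more signal from small fish. A ratio holds no level, so probes cannot be ranked by expression, the tissue cannot be checked by its markers, and fewer cells of a type cannot be told apart from less RNA per cell. A probe was counted as past the thresholds at an unadjusted p of 0.05 or less in limma and a fold change of at least 1.2, those of the study. In Sept. 1054 of 38679 probes passed (2.72%; 1.52% higher in small fish, 1.21% in large fish), and in Dec. 1647 of 34014 (4.84%; 2.09% and 2.75%). Over both lots 1049 of 33291 passed (3.15%; 1.29% and 1.86%), and 917 (2.75%) differed between the lots, 1.53% with the higher ratio in Sept. and 1.23% in Dec. At a Benjamini-Hochberg adjusted p under 0.05 limma called 0 probes in each of the 4 comparisons. The arrays of a dye flip, which carry the same pools, correlated at only -0.144 to 0.0570 across probes, while arrays of the same dye orientation and other pools correlated at 0.0524 to 0.358. For that reason the values of both dye orientations are given separately for the genes below.

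**Figure D1:**
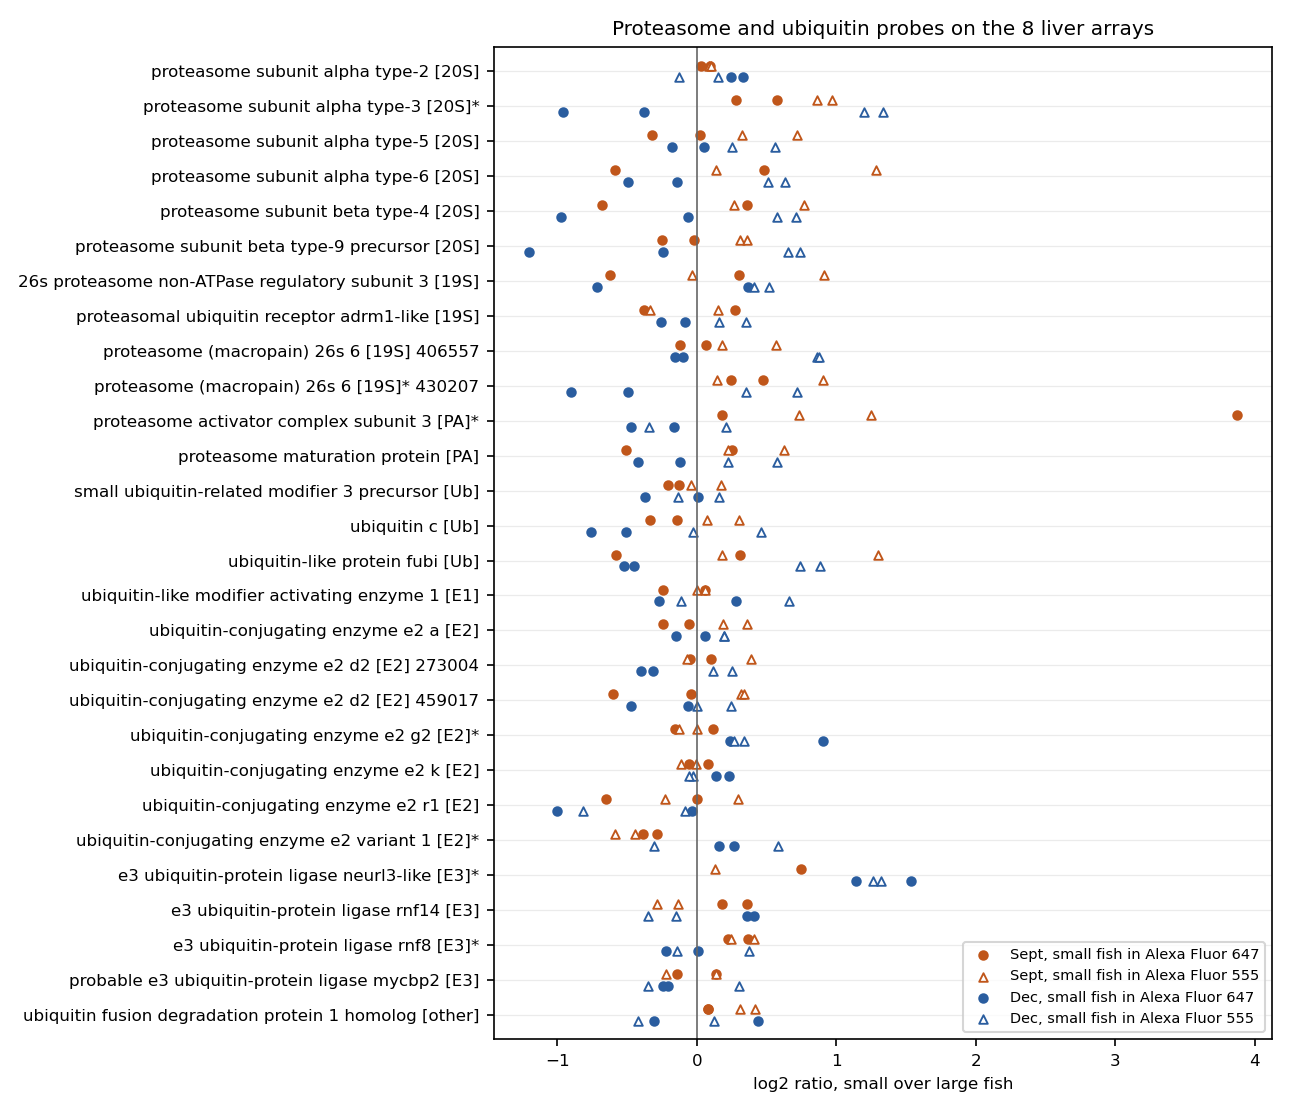
Log2 ratio of small over large fish (x axis) of the 28 proteasome and ubiquitin probes (rows, ordered by role, with the role in brackets: PA, activation or assembly; Ub, ubiquitin and its relatives) on the 8 arrays. Color gives the lot and the symbol the dye of the small fish, an asterisk marks the 7 probes named in the liver lists, and in most 20S rows the open triangles (small fish in Alexa Fluor 555) lie to the right of the filled circles (647).

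With the dye orientations averaged, the 20S core subunits mostly leaned to the small fish without passing the thresholds. In Sept. 5 of the 5 subunits named in muscle had a ratio above 0 (median 0.18, range 0.08 to 0.33) and in Dec. 4 of 5 (median 0.13, range -0.01 to 0.17), against medians of 0.00 and 0.01 over all probes. None of the 5 passed in either lot or over both lots, and the median standard error of their estimates in a lot was 0.17. By pool pair their median was 0.00 and 0.37 in Sept. and 0.04 and 0.25 in Dec., so the lean came mostly from pool pair 2 of each lot. Proteasome subunit alpha type-2 (A_05_P389557), of the alpha ring, varied least among arrays. Its ratio was 0.03 and 0.10 in Sept. with small fish in Alexa Fluor 647, 0.09 and 0.10 with small fish in 555, 0.33 and 0.25 in Dec. with 647, and 0.15 and -0.13 with 555. It was above 0 on 7 of 8 arrays, and limma gave 0.08 (SE 0.13) for Sept. and 0.15 (SE 0.13) for Dec.

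Proteasome subunit alpha type-6 (A_05_P436627), also of the alpha ring, and proteasome subunit beta type-4 (A_05_P410972), a beta ring subunit without an active site in mammals, were split by pool pair and by dye. For alpha type-6 the Sept. ratios were -0.58 and 0.48 with small fish in 647 and 0.14 and 1.28 with small fish in 555. The Dec. ratios were -0.14 and -0.50 with 647 and 0.64 and 0.51 with 555. On each pool pair the array with small fish in 555 was the higher. For beta type-4 the Sept. ratios were -0.68 and 0.36 with 647 and 0.26 and 0.77 with 555, and the Dec. ratios were -0.97 and -0.06 with 647 and 0.57 and 0.71 with 555. Size effects were 0.33 (SE 0.29) and 0.13 (SE 0.29) for alpha type-6 and 0.18 (SE 0.25) and 0.06 (SE 0.25) for beta type-4 in Sept. and Dec.

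Proteasome subunit beta type-9 precursor (A_05_P459622) is in mammals the interferon-induced subunit that replaces a catalytic subunit of the core to form the immunoproteasome. In Sept. it read -0.25 and -0.02 with small fish in 647, and 0.31 and 0.36 with small fish in 555. The Dec. arrays read -1.201 and -0.25 with 647, and 0.66 and 0.74 with 555. Every array with small fish in 647 was below 0 and every array with small fish in 555 above it, and limma gave 0.10 (SE 0.17) for Sept. and -0.01 (SE 0.17) for Dec. Probes with the platform symbol psmb9b, A_05_P249239 and A_05_P441057, gave 0.13 and -0.09 in Sept. and 0.05 and -0.12 in Dec., and psmb9a A_05_P249504 gave -0.09 in Sept. and was not tested in Dec. None passed the thresholds. Of 9 probes for immune and interferon response genes, 0 passed in Sept. and 0 in Dec., with medians of 0.00 and -0.15. Proteasome subunit alpha type-5 (A_05_P409612) gave 0.19 (SE 0.16) and 0.17 (SE 0.16).

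Proteasome subunit alpha type-3 (A_05_P406597), of the alpha ring, came from the Sept. liver list. In Sept. its ratio was 0.28 and 0.58 with small fish in 647 and 0.86 and 0.97 with small fish in 555, so that all 4 arrays were above 0 and the mean was 0.67 (SE 0.14, a fold of 1.59). In Dec., which had no part in its choice, it was -0.96 and -0.38 with 647 and 1.33 and 1.2 with 555. The Dec. arrays of the same pools lay on opposite sides of 0, and the Dec. estimate of 0.30 (SE 0.14) did not pass the thresholds. Over both lots the value was 0.49 (SE 0.10), which includes the Sept. arrays it was chosen on.

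In the 19S regulatory particle 1 of the 3 probes named in muscle passed in Dec. (4.84% of all probes) and 0 in Sept. (2.72%). The probe that passed (A_05_P406557) is named proteasome (macropain) 26s 6, which does not say whether it is an ATPase or another subunit of the particle. Its Dec. ratios were -0.10 and -0.16 with small fish in 647 and 0.86 and 0.88 with small fish in 555. The Dec. estimate was 0.37 (SE 0.14, adjusted p 0.990 in limma), with pool pair means of 0.38 and 0.36. Both pool pairs gave the same mean although each held arrays on opposite sides of 0, and with small fish in 647 alone the Dec. value was -0.13. In Sept. it was -0.12 and 0.07 with 647 and 0.18 and 0.57 with 555, for an estimate of 0.17 (SE 0.14). Over both lots it passed at 0.27 (SE 0.10, adjusted p 1.00), and with small fish in 647 alone the value was -0.08. Leaving out any 1 pool pair ended both calls, with Dec. values of 0.36 to 0.38 and values over both lots of 0.20 to 0.34.

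A second probe of that name (A_05_P430207) came from the Sept. liver list. In Sept. it read 0.25 and 0.47 with small fish in 647 and 0.14 and 0.90 with small fish in 555, all above 0, with a mean of 0.44 (SE 0.17). The Dec. ratios were -0.90 and -0.49 with 647 and 0.72 and 0.35 with 555, for an estimate of -0.08 (SE 0.17). The probes of the same name thus gave 0.37 and -0.08 in Dec., and averaged over both probes the Dec. value was 0.14 and did not pass. Probe A_05_P488577 for 26s proteasome non-ATPase regulatory subunit 3, a subunit of the lid of the particle, gave 0.14 (SE 0.18) for Sept. and 0.15 (SE 0.18) for Dec. The proteasomal ubiquitin receptor adrm1-like (A_05_P410502), which binds ubiquitin chains at the tip of the particle, gave -0.07 (SE 0.13) and 0.04 (SE 0.13). All 4 estimates were within 1 standard error of 0.

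Proteasome activator complex subunit 3 (A_05_P254864), named in the Sept. liver list, forms in mammals a ring that opens the core in the nucleus without the need for ubiquitin. Its Sept. ratios were 0.18 and 3.87 with small fish in 647 and 0.73 and 1.25 with small fish in 555. All 4 were above 0, but 1 array of pool pair 2 stood far above the others, and the pool pair means were 0.46 and 2.56. The Sept. mean of 1.51 (SE 0.51) had the largest ratio and the largest standard error of all 27 probes tested in that lot, and without pool pair 2 it was 0.46. In Dec. the ratios were -0.17 and -0.47 with 647 and 0.21 and -0.34 with 555. The Dec. estimate was -0.19, with pool pair means of 0.02 and -0.41. Its SE of 0.51 comes from the spread shared by both lots, to which the Sept. pool pairs add most. Proteasome maturation protein (A_05_P441892), a chaperone of core assembly, gave 0.15 (SE 0.18) in Sept. and 0.06 (SE 0.18) in Dec.

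**Figure D2:**
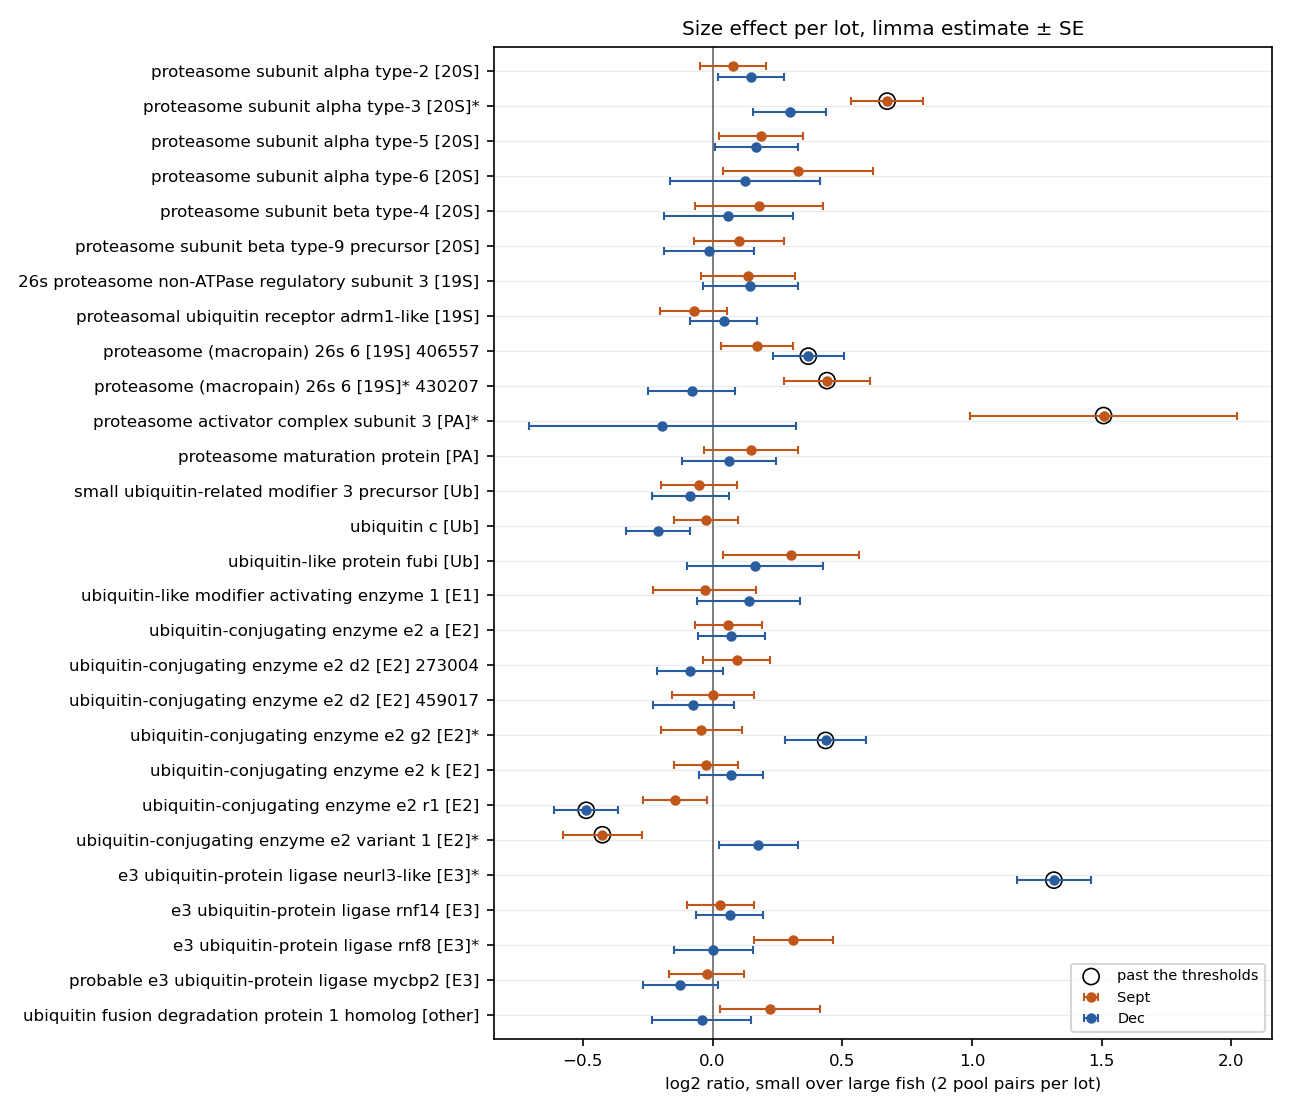
Limma estimate of the log2 ratio of small over large fish with its standard error (x axis) for each of the 28 probes (rows) in Sept. (orange) and Dec. (blue), 2 pool pairs per lot. Rings mark estimates past the thresholds, an asterisk marks the 7 probes named in the liver lists, and of the 8 ringed values 2 belong to probes without an asterisk (0.37 and -0.49, both in Dec.). Rings on probes with an asterisk lie in the lot that put them on a list, so they describe that choice and are no test.

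Ubiquitin and its relatives did not pass in either lot. Ubiquitin c (A_05_P418397), the polyubiquitin gene that cells draw on under stress in mammals, gave -0.03 (SE 0.12) in Sept. and -0.21 (SE 0.12) in Dec. Small ubiquitin-related modifier 3 precursor (A_05_P418747), a modifier that changes the interactions of its targets, gave -0.05 (SE 0.15) and -0.09 (SE 0.15). Ubiquitin-like protein fubi (A_05_P251364), which mammals make fused to a protein of the small ribosomal subunit, gave 0.30 (SE 0.26) and 0.16 (SE 0.26). The E1, ubiquitin-like modifier activating enzyme 1 (A_05_P400067), gave -0.03 (SE 0.20) and 0.14 (SE 0.20).

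Among the E2 enzymes 1 of the 5 named in muscle passed in Dec. (4.84% of all probes) and 0 in Sept. (2.72%). Ubiquitin-conjugating enzyme e2 r1 (A_05_P473022) works in mammals with cullin-based ligases of the cell cycle. On the Dec. arrays it read -1.01 and -0.04 with small fish in 647 and -0.08 and -0.82 with small fish in 555. All 4 arrays were below 0, as for 1161 of 34014 probes in Dec. (3.41%), but on either pool pair 1 array was near 0 and the other far from it. The estimate was -0.49 (SE 0.12, adjusted p 0.990 in limma), higher in large fish, with pool pair means of -0.55 and -0.43. In Sept. the ratios were -0.65 and 0.00 with 647 and 0.29 and -0.23 with 555, for -0.15 (SE 0.12). Over both lots it passed at -0.32 (SE 0.09, adjusted p 1.00). Without Dec. pool pair 1 the Dec. value was -0.43 and did not pass, and without Sept. pool pair 1 or 2 the value over both lots was -0.30 or -0.33 and did not pass. At the same value the Dec. call was also lost with the methods' t-test over 4 arrays or 2 pool pairs, with a dye term and random block, and with robust estimation.

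Ubiquitin-conjugating enzyme e2 variant 1 (A_05_P406767) lacks the catalytic cysteine and pairs with an active E2 in mammals, and it came from the Sept. liver list. In Sept. it read -0.39 and -0.28 with small fish in 647 and -0.44 and -0.59 with small fish in 555. These 4 arrays were all below 0 with little spread, and the Sept. mean was -0.42 (SE 0.15). On the Dec. arrays it read 0.16 and 0.27 with 647 and 0.59 and -0.30 with 555, for 0.18 (SE 0.15). The difference between the lots was -0.60 (SE 0.21), which includes the Sept. arrays the probe was chosen on and is a description only. Without Dec. pool pair 1 the difference was -0.41.

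Ubiquitin-conjugating enzyme e2 g2 (A_05_P289367), which in mammals tags misfolded proteins at the endoplasmic reticulum, came from the Dec. liver list. The Dec. values were 0.90 and 0.24 with small fish in 647 and 0.34 and 0.27 with small fish in 555. All 4 were above 0, with 1 array of pool pair 1 well above the others, and the mean was 0.44 (SE 0.15). Without pool pair 1 the value was 0.25. In Sept., which had no part in its choice, it read 0.11 and -0.16 with 647 and 0.00 and -0.13 with 555, for -0.04 (SE 0.15). The other E2 probes were those of e2 a (A_05_P472252), a partner of histone-tagging ligases, e2 k (A_05_P420187), which builds chains, and 2 probes of e2 d2 (A_05_P273004 and A_05_P459017), a partner of many ligases. Their estimates lay between -0.03 and 0.09 in Sept. and between -0.09 and 0.07 in Dec.

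The ligase with the largest ratio in Dec. was e3 ubiquitin-protein ligase neurl3-like (A_05_P444687), named in the Dec. liver list. In Dec. it read 1.14 and 1.54 with small fish in 647 and 1.32 and 1.26 with small fish in 555. The 4 values lay close together whatever the dye, and their mean was 1.32 (SE 0.14, a fold of 2.49). In Sept. only pool pair 1 had values, 0.75 with 647 and 0.13 with 555, and both arrays of pool pair 2 were empty. It was therefore not tested in Sept., and its own spread in the fit came from the Dec. pool pairs alone. It was above 0 on 6 of the 6 arrays with a value, but 4 of these are the Dec. arrays that put it on the list.

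E3 ubiquitin-protein ligase rnf8 (A_05_P316697), which tags histones at DNA breaks in mammals, came from the Sept. liver list. In Sept. it read 0.37 and 0.22 with small fish in 647 and 0.41 and 0.24 with small fish in 555, with a mean of 0.31 (SE 0.15). All 4 were above 0 and alike within a pool pair, which is a description since these arrays put it on the list. The Dec. values were 0.01 and -0.22 with 647 and 0.37 and -0.15 with 555, for 0.00 (SE 0.15). E3 ubiquitin-protein ligase rnf14 (A_05_P424817), a coregulator of the androgen receptor in mammals, gave 0.03 (SE 0.13) in Sept. and 0.07 (SE 0.13) in Dec. Probable e3 ubiquitin-protein ligase mycbp2 (A_05_P420912), known from axon growth, gave -0.02 (SE 0.14) and -0.13 (SE 0.14). Ubiquitin fusion degradation protein 1 homolog (A_05_P261369), which helps to pull tagged proteins out of membranes and complexes, gave 0.22 (SE 0.19) and -0.04 (SE 0.19).

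Of the 21 probes named in muscle, 0 passed in Sept. (background 2.72%) and 2 in Dec. (4.84%), 1 in either direction. Over both lots the same 2 probes passed (3.15%), and 0 differed between the lots (2.75%). All 21 passed the filter on complete values, and 0 to 2 calls among 21 probes cannot be set apart from these backgrounds. The backgrounds hold the probes of the liver lists and the 21 do not, which lowers the count of the 21 by construction. On the 4 Sept. arrays 2 of the 21 were above 0 throughout (5% of all probes) and 0 below (4.7%), and on the 4 Dec. arrays 0 were above 0 throughout (4.64%) and 1 below (3.41%). The 9 proteasome probes among them had medians of 0.15 in Sept. and 0.13 in Dec., with 8 of 9 above 0 in each lot. The 12 ubiquitin probes had medians of -0.01 and -0.06, with 6 and 5 of 12 above 0. By pool pair the proteasome median was 0.00 and 0.32 for Sept. and 0.07 and 0.25 for Dec., higher in the second pool pair of each lot.

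Of the 5 probes from the Sept. liver list 0 passed in Dec. (4.84% of all probes), where their median was 0.00 and 3 of 5 were above 0. So few probes cannot be set apart from that background. The differences between the lots include the Sept. arrays these probes were chosen on and are given as a description. They were 1.70 (SE 0.73) for proteasome activator complex subunit 3, 0.52 (SE 0.24) for the second 26s 6 probe, 0.38 (SE 0.20) for alpha type-3 and 0.31 (SE 0.22) for rnf8. None of the 27 probes with a value on all 8 arrays had the same sign on all of them, as 0.258% of all probes did above 0 and 0.294% below 0.

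For many proteasome probes both arrays of a dye flip gave ratios far apart, as they did for much of the array. This was noticed in the values above and then measured as the gap between the arrays of a dye flip (ratio with small fish in 555 minus ratio with small fish in 647), fitted in limma over the 4 pool pairs, and it describes these arrays rather than testing an idea set out beforehand. Of the 9 proteasome probes named in muscle 6 had a gap past the same thresholds, all with the higher ratio for small fish in 555, and the median gap was 0.62. Of the 12 ubiquitin probes 3 passed in that direction and 1 in the other, and their median gap was 0.21. In all 4 pool pairs the gap was above 0 for 6 of the 9 proteasome probes and 5 of the 12 ubiquitin probes (16.9% of all probes), and below 0 for 0 and 2 of them (18.1%). Over all probes 8352 of 33291 passed (25.1%), 14.5% in the direction of the proteasome probes and 10.6% in the other, and the median gap was -0.07. Dye gaps were thus common on these arrays, and those of 8 of the 9 proteasome probes lay above 0, against 14310 of 33291 of all probes. Their cause was not tested.

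**Figure D3:**
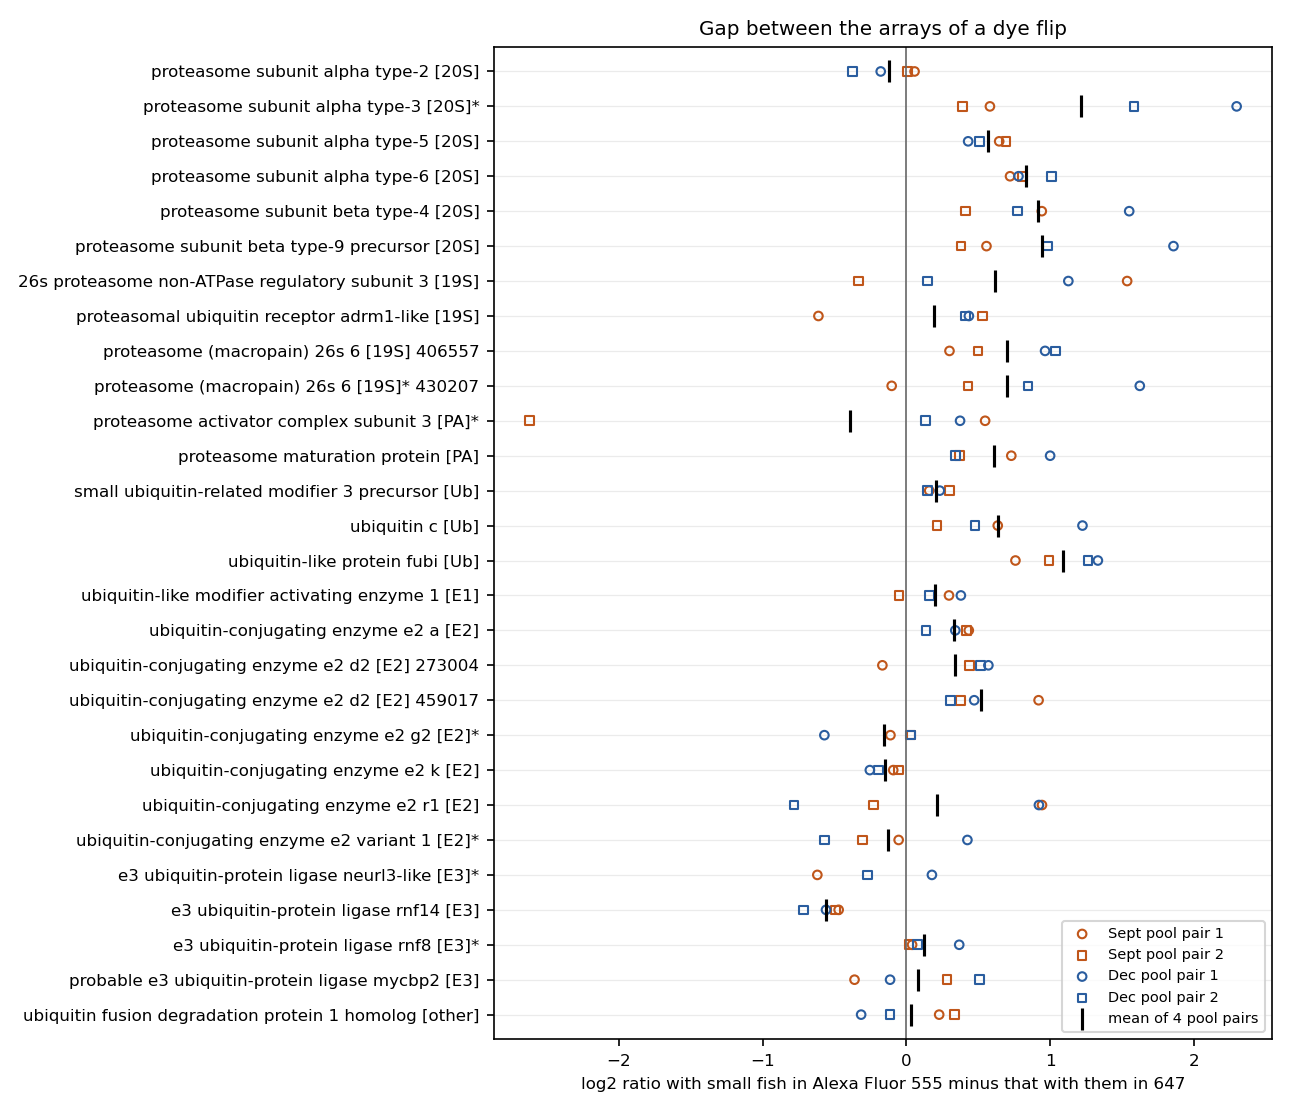
Gap between the arrays of a dye flip, as the log2 ratio with small fish in Alexa Fluor 555 minus that with small fish in 647 (x axis), for the 28 probes (rows) in each of the 4 pool pairs, with a black bar at the mean where all 4 have values. In the 20S rows below alpha type-2 every pool pair lies above 0, fubi has 4 gaps of 0.76 to 1.33, and rnf14 and e2 k have all 4 below 0.

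For alpha type-6 the gap was 0.72 and 0.81 in the Sept. pool pairs and 0.78 and 1.01 in the Dec. pool pairs, with a mean of 0.83 (SE 0.16, adjusted p 0.0323 in limma). For ubiquitin-like protein fubi it was 0.76 and 0.99 in Sept. and 1.33 and 1.26 in Dec., with a mean of 1.09 (SE 0.17, adjusted p 0.0251). These were the only 2 of 27 probes with an adjusted p under 0.05, as for 2055 of all probes (6.17%, with 5.48% in this direction). Both were lost without Sept. pool pair 1, Dec. pool pair 1 or Dec. pool pair 2, when limma called 0 probes after adjustment. The pool pair means of fubi, which average over the dyes, were -0.20 and 0.80 for Sept. and 0.22 and 0.11 for Dec. Gaps past the unadjusted threshold included beta type-9 at 0.94 (SE 0.26), beta type-4 at 0.92 (SE 0.22), alpha type-5 at 0.57 (SE 0.16), proteasome maturation protein at 0.61 (SE 0.18) and both probes of 26s 6 at 0.70 (SE 0.19 and 0.28). The gap of alpha type-3 was 1.21 (SE 0.33), larger in Dec. (2.30 and 1.58) than in Sept. (0.58 and 0.39).

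Among the rest the gap varied. Alpha type-2 had a gap of -0.12 (SE 0.16), with pool pairs on both sides of 0. E3 ligase rnf14 had the opposite gap, -0.56 (SE 0.16), with -0.47 and -0.49 in Sept. and -0.56 and -0.71 in Dec. Its ratio was 0.18, 0.36, 0.41 and 0.36 on the arrays with small fish in 647 and -0.29, -0.13, -0.15 and -0.35 on those with small fish in 555, so that each dye orientation alone gave a size effect of opposite sign. Ubiquitin c and 1 probe of e2 d2 (A_05_P459017) had gaps in the direction of the proteasome probes, 0.64 (SE 0.21) and 0.52 (SE 0.18). Of 27 probes, 22 had a larger gap between dyes than their size effect over both lots, against 27583 of 33291 of all probes (82.9%), a share near that of the members. The gap is a difference of 2 arrays and the size effect a mean, which puts the gap on a wider scale.

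**Figure D4:**
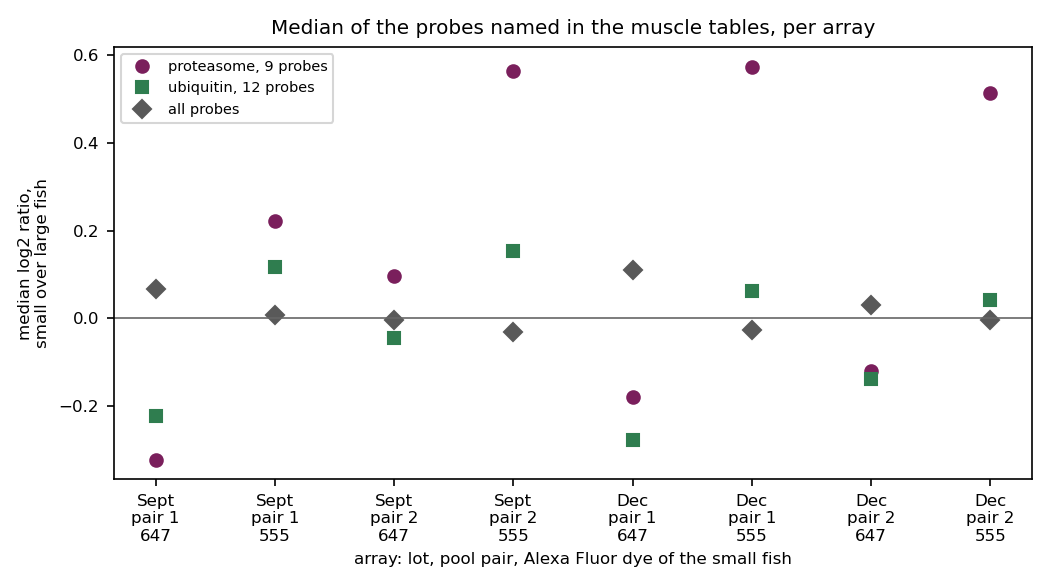
Median log2 ratio of small over large fish (y axis) on each of the 8 arrays (x axis, with lot, pool pair and the dye of the small fish) for the 9 proteasome and 12 ubiquitin probes named in muscle and for all probes. On each pool pair the proteasome median is higher on the array with small fish in 555 (0.22 to 0.57) than on that with 647 (-0.32 to 0.10).

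On the single arrays the median of the 9 proteasome probes was -0.32, 0.10, -0.18 and -0.12 with small fish in 647 and 0.22, 0.56, 0.57 and 0.52 with small fish in 555. The median of the 12 ubiquitin probes was -0.22, -0.04, -0.28 and -0.14 with 647 and 0.12, 0.16, 0.06 and 0.04 with 555. Both orders are Sept. pool pairs 1 and 2, then Dec. pool pairs 1 and 2. In both lots the orientations alone gave proteasome medians on opposite sides of 0, -0.13 and 0.42 for Sept. and -0.17 and 0.46 for Dec. The reading of every array as small over large fish bears on this, since turning the sign of the arrays with small fish in 555 would make the dye gap a size effect. With those signs turned the proteasome medians were -0.27 in Sept. and -0.34 in Dec., and 3, 7 and 9 of the 21 probes passed in Sept., in Dec. and over both lots. The count over all probes rose as well, to 3664 of 38679 in Sept. against 1054 as given. Shares over all probes with turned signs are not set beside the counts for Dec. and both lots here. The member counts are therefore not read as a result about the members. Red blood cell genes (hemoglobin subunits and band 3, 13 probes), 9 of which were themselves chosen on these arrays, had medians of -0.58 and -0.09 with 647 and -0.50 and -0.47 with 555 in Sept., and 0.48 and 0.40 with 647 and 1.01 and 0.91 with 555 in Dec.

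The red blood cell genes are also the markers of another cell type that moved with size. In Sept. 6 of 13 passed on the side of large fish and in Dec. 10 of 13 on that of small fish, with median ratios of -0.42 and 0.71, while the proteasome median was 0.15 and 0.13. Of these 13 probes 9 are named in the liver lists, and of the other 4, 1 passed in Sept. and 2 in Dec. in the same directions, with medians of -0.20 and 0.30, against backgrounds of 1.21% and 2.09%. Their part in the values of the proteasome and ubiquitin probes was not tested. Skeletal muscle genes were 30 probes by name, of which 28 were tested in Sept. and 27 in Dec. Their medians were 0.00 and 0.04, with 3 and 1 past the thresholds (2.72% and 4.84% of all probes). Without the probes named in the liver lists 0 of 22 tested passed in Sept. and 0 of 21 in Dec. These counts are lowered by construction, since those lists are calls on these arrays.

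Other genes of the pathway that carry neither word in their names (25 probes, among them other proteasome subunits, ring finger proteins, an activating enzyme of nedd8 and a sentrin-specific protease) had medians of 0.04 in Sept. and -0.04 in Dec. In Sept. 0 of 25 passed and in Dec. 1 of 24, ring finger and spry domain containing 1 (A_05_P459662), at -0.63 (SE 0.17). It is named in the Sept. liver list, which had no part in its Dec. value. Without the probes named in the liver lists 0 of 22 passed in Sept. and 0 of 21 in Dec. Those lists are calls on these same arrays, so leaving them out lowers the count by construction. The dye gaps of the 24 tested had a median of -0.01. Past the thresholds were 3 on the side of small fish in 555 and 3 on that of 647, against 14.5% and 10.6% of all probes. Gaps to the side of small fish in 555 were not particular to the proteasome probes, since the 9 immune and interferon probes had a median gap of 0.99 with 4 past the thresholds in that direction and 1 in the other, and of the 11 lysosomal probes below 5 passed in that direction and 0 in the other, at a median of -0.01. Genes of lysosomal protein breakdown (11 probes) had medians of 0.03 in Sept. and -0.08 in Dec. In Sept. 1 passed, lysosomal protective protein precursor (A_05_P366227), a carboxypeptidase of the lysosome, at 0.53 (SE 0.16), and in Dec. 0 passed. It is named in the Sept. liver list, so this value is a description. Of the 9 probes outside the liver lists 0 passed in either lot, a count lowered by construction in the same way.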

How the data were processed

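Liver mRNA of small and large trout was measured on 8 two-color Agilent salmonid arrays. The authors scanned them, quantified spots in GenePix Pro, flagged and dropped unacceptable spots after manual review, discarded points whose channel ratio fell below a set baseline and applied lowess normalization in GeneSpring. What they deposited are log2 ratios. Array probes came from Atlantic salmon sequences, so trout mRNA was measured across species. For some gene names the paper proposes that different probes may read different copies of a gene. Depth has no meaning here, single-channel signals were not used, and the number of arrays limits the precision. Of 43663 lines 60 control spots were left out. Arrays had values for 36754 to 41918 probes (3.86% to 15.7% empty), with medians of -0.03 to 0.11.

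Each array's ratio was taken as that of small over large fish. In this direction the mean of a lot lay on the listed side for 308 of 308 named liver entries of Sept. and 102 of 102 of Dec. The lists come from these same arrays, so the match shows how the study read them and cannot check the orientation of single arrays. Labels alone do not settle it either. Apart from the arrays, the paper reports qPCR of Sept. livers for complement C1q-like protein 4, hemoglobin subunit alpha and the IGF binding protein. All went in the direction of its array results, the binding protein short of significance. None of these is a member, and qPCR was not set against single arrays. Both arrays of each dye flip were averaged (left out where 1 was empty), and 4 pool pairs were fitted in limma 3.58.1 (lmFit and eBayes, R 4.3.3, statmod 1.5.0) with lot means and 1 shared spread. Lots were tested on probes with values on all 4 arrays, their mean and difference on all 8. Two-sided p-values were adjusted over all probes tested (Benjamini-Hochberg). The code was tested on simulated data.

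All 28 members are named. Values on each array are given for those past the thresholds in any comparison, those named in the liver lists and, chosen after the values were seen, those the dye comparison turns on. Members, roles and lists were chosen with earlier results of these data known. Lists were filled by words in the names, so the skeletal muscle list also holds other myosins. The dye comparison was added after the values were seen. Alternatives were the methods' t-test, a dye term with random blocks for pool pairs, lots fitted singly, robust estimation, centered arrays, turned signs, 1 dye orientation, other filters and folds, averaged probes of 1 name, a replicate block and leaving out each pool pair.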

Additional observations from a re-analysis of the deposited data

Results flagged for a closer look

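The single arrays of each probe in each lot were examined for a value far from the other 3, over 55 sets of 4 arrays with all values, and 2 were found, where chance gives about 1 in 20 sets. Both lie on the array of Dec. pool pair 1 with small fish in Alexa Fluor 647. The 26s proteasome non-ATPase regulatory subunit 3 read -0.71 there, against 0.37 to 0.52 on the other 3 Dec. arrays. Ubiquitin-conjugating enzyme e2 g2 read 0.90 there, against 0.24 to 0.34 on the other 3. The value of 3.87 for proteasome activator complex subunit 3 on a Sept. array was not among them.

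The size effect of ubiquitin-conjugating enzyme e2 variant 1 differed between the lots by -0.60 (SE 0.21, Sept. minus Dec.) in limma before adjustment. Its adjusted p was 1.00. The probe was named through its Sept. liver values on these arrays, so the difference is a description and not independent evidence.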

How the results depend on the processing

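Among probes named in muscle, the counts past the thresholds were small (0 in Sept., 2 in Dec., 2 over both lots, 0 for the difference). In Dec. the count was 1 with the methods' t-test over 2 pool pairs, the dye term with a random block, each lot alone, centered arrays, small fish in 647 alone, at least 1 array per pool pair and averaged probes of 1 name. It was 0 with the methods' t-test over 4 arrays, robust estimation and a fold of 1.5, 4 with small fish in 555 alone and 7 with turned signs. Over both lots it was 1 with the dye term, centered arrays, at least 1 array per pool pair and averaged probes, 0 with robust estimation and a fold of 1.5, 7 with small fish in 555 alone and 9 with turned signs. In Sept. it was 3 with turned signs. Counts over all probes moved with the settings too. In Sept. they were 344 of 33291 with robust estimation, 2109 of 40315 with small fish in 555 alone and 3664 of 38679 with turned signs. Shifts of the member counts between settings are not read as a result about the members, since counts over all probes are set beside them by setting for Sept. only. Leaving out 1 pool pair gave 0 to 2 in Sept., in Dec. and over both lots, and 0 to 1 for the difference. Same-numbered pool pairs of the lots hold different fish, and their deviations correlated at r = 0.0319 over 33291 probes. The paper paired pools by size rank in the same way in both lots. The number may therefore also stand for rank, which the labels do not state. With the number as a replicate block the counts were 0, 1, 1 and 0, and over all probes 2131 passed in Sept. in place of 1054.

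The proteasome medians in Sept., in Dec. and over both lots (0.15, 0.13 and 0.12) became -0.13, -0.17 and -0.17 with small fish in 647 alone, 0.42, 0.46 and 0.46 with 555 alone, and -0.27, -0.34 and -0.31 with turned signs. Leaving out 1 pool pair gave 0.00 to 0.32, 0.07 to 0.25 and 0.01 to 0.25. Turned signs also reversed alpha type-3 (-0.24 in Sept., -0.61 over both lots), 26s 6 A_05_P430207 (-0.082 in Sept.), 26s 6 A_05_P406557 (-0.50 in Dec., -0.35 over both lots) and e2 variant 1 (0.090 in Sept., 0.053 for the difference). With 647 alone 26s 6 A_05_P406557 was -0.13 in Dec. and -0.079 over both lots, and alpha type-3 -0.12 over both lots. The causes of these shifts were not tested beyond the dye comparison itself. Over all probes the counts ranged from 344 to 3664 in Sept., 499 to 6809 in Dec., 0 to 6266 over both lots and 611 to 3088 for the difference. Adjusted calls stayed at 0 in all of these but the methods' t-test over 2 pool pairs (4 in Sept., none a member) and the difference without Sept. pool pair 1 (1 probe).

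The dye comparison gave 7 to 11 of 21 probes past the thresholds (10 as given) and a median proteasome gap of 0.57 to 0.77 under every alternative run. Its adjusted calls over all probes, 2055, fell to 0 with robust estimation, with at least 2 pool pairs, or without Sept. pool pair 1, Dec. pool pair 1 or Dec. pool pair 2. With 2 pool pairs per lot, from half-sib families of 1 male, small effects could not be resolved. This held for some estimates over the fold threshold too, such as alpha type-6 at 0.33 (SE 0.29) and fubi at 0.30 (SE 0.26) in Sept.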
